A study of Mus musculus with 22 samples.

Results

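The 44 genes described here encode voltage-gated and pacemaker ion channels of the mouse hippocampus: 21 potassium channel subunits, 6 sodium channel subunits, 15 calcium channel subunits and 2 hyperpolarisation-activated cyclic nucleotide-gated (HCN) subunits. They were taken by gene symbol, and every non-control probe whose RefSeq transcript belongs to one of them was taken. This gave 70 of the 55681 probes on the array, against 21154 genes that could be named from the probes in all. Of the members, 23 had 1 probe and 21 had several.

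The study compared TgproNGF#3 mice with WT mice on a C57Bl/6xDBA/2 background. TgproNGF#3 is a single transgenic line carrying a furin-resistant mouse pre-proNGF cDNA, followed by an IRES and EGFP, under the mouse Thy1.2 promoter, which drives the transgene in the adult brain. Both genotypes were untreated, and total RNA of the right-hemisphere hippocampus was labelled with Cy3 and hybridised one mouse per array. There were 4 TgproNGF#3 and 4 WT males at 1 month, 4 and 4 males at 3 months, and 3 and 3 females at 12 months. The arrays of an age shared a slide and those of different ages did not. Across the ages, therefore, an effect of age cannot be told apart from one of sex or of the slide, whereas genotypes were compared within a slide.

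Voltage-gated channels open when the membrane is depolarised. Sodium channels carry the upstroke of the action potential, potassium channels end it and set how soon the next one can follow, and calcium channels couple it to transmitter release and to gene expression in the nucleus. Inward-rectifier potassium channels hold the resting potential, calcium-activated potassium channels produce the afterhyperpolarisation, and HCN channels open on hyperpolarisation and pace rhythmic firing. In the hippocampus these channels set the excitability of pyramidal cells, granule cells and fast-spiking interneurons.

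The regions upstream of 5 members are shown first. They are the members with a probe called at 3 months that have a single start site in the RefSeq promoter table (assembly GRCm38.p6), so that each sequence belongs to a gene the results turn on. Each is the 250 bases before the annotated start, on the strand of the gene. Short elements were searched on both strands, and capitals mark a match. The GC box that Sp factors bind was searched for with the letters GGGCGG. The element named after its first letters, found ahead of many regulated start sites, was searched for as TATAAA. The box bound by nuclear factor Y was searched for as CCAAT, the E-box of helix-loop-helix factors as CACGTG, and the cAMP response element of activity-regulated genes as TGACGTCA. The windows are Kcna6 chr6:126740675-126740924 minus strand, Kcnc1 chr7:46396218-46396467 plus strand, Kcnj9 chr1:172329323-172329572 minus strand, Cacna1e chr1:154725921-154726170 minus strand and Cacna2d3 chr14:29721865-29722114 minus strand.
Kcna6: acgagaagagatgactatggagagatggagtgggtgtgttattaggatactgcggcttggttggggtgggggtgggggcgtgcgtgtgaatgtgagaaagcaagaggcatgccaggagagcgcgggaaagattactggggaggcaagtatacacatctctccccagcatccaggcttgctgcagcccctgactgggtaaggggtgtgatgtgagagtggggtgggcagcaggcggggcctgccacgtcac
Kcnc1: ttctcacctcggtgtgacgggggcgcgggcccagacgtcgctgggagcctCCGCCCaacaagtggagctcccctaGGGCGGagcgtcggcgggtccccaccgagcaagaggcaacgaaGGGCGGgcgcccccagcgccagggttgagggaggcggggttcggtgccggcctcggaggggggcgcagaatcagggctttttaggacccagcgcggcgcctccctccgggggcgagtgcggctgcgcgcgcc
Kcnj9: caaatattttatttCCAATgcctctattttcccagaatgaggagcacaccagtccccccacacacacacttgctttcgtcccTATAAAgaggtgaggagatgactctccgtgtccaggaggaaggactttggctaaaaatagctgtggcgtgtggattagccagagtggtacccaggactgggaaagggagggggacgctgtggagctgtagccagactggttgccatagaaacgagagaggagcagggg
Cacna1e: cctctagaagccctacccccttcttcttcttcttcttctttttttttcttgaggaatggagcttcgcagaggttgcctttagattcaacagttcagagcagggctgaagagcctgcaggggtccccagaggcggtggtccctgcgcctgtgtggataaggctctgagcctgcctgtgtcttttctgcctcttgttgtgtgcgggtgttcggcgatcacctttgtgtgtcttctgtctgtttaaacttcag
Cacna2d3: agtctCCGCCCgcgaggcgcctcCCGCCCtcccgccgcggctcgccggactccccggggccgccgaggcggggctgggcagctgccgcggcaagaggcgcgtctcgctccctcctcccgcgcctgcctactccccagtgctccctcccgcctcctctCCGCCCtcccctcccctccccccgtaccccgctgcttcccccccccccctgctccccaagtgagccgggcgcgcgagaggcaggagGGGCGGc
The window of Kcnc1 held 3 GC boxes and that of Cacna2d3 held 4. The window of Kcnj9 held 1 TATA element and 1 CCAAT box, and those of Kcna6 and Cacna1e held none of the letters searched. Over the 35 members with an entry, which had 50 windows, the median GC content was 62.6%, against 52.4% over all 32851 windows of the table. A GC box stood in 22 of the 50 member windows and in 32.7% of all windows. A TATA element stood in 4.0% and 12.4%, a CCAAT box in 32.0% and 33.8%. No member window held the letters CACGTG or TGACGTCA, which 6.02% and 1.55% of all windows held. Other forms of the E-box and of the cAMP response element were not searched. These are descriptions of sequence, with no test.

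Levels are given on the log2 scale, as the deposited background-corrected signal relative to the 75th percentile of its own array, so that 0 is that percentile. A Log2 FC is the mean of TgproNGF#3 minus the mean of WT. A probe was called when its unadjusted p in the limma fit was below 0.05 and its Log2 FC beyond 1 in either direction, or when its p was below 0.05 after Benjamini-Hochberg adjustment over all probes of that age. Levels of different probes are not compared, since each probe has its own brightness. Of the 70 probes, 68 could be tested at 1 month, 68 at 3 months and 66 at 12 months. Kcnn1 (a small-conductance calcium-activated potassium channel) was well above background on 1 of 4 TgproNGF#3 and 1 of 4 WT arrays at 1 month and was not tested, and Hcn4 (a pacemaker subunit best known from the sinus node) was well above background on no array.

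Between 57.6% and 80.27% of the spots of an array were well above background. All 7 pyramidal and all 7 granule neuron markers, which define the labelled tissue, were measured well enough to be tested at each age. Choroid plexus markers varied widely within 5 of the 6 groups. Around the WT mean of its age, the median of the list lay between -2.01 and 1.73 at 1 month and between -1.75 and 1.71 at 12 months. At 3 months it lay between -3.10 and 0.67 in TgproNGF#3 and between -0.31 and 0.34 in WT.

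At 3 months, voltage-gated channel probes were mostly lower in TgproNGF#3. Of the 68 probes tested, 52 were lower and 16 higher, where 62.7% of all probes were lower, with a median Log2 FC of -0.22 and a range from -2.13 to 0.80. The median of all 33593 probes tested at this age was itself -0.123, so the channel probes stood 0.10 below it. With p below 0.05, 19 channel probes (27.9%) were lower and 4 (5.88%) higher, where 19.7% and 7.48% of all probes were. With Log2 FC beyond 1 in addition, 9 channel probes (13.2%) were lower and 0 higher, against 6.12% and 0.643% of all probes. After adjustment 7 (10.3%) were lower and 1 (1.47%) higher, against 6.85% and 1.57%. The values of the mice of both genotypes did not overlap for 14 channel probes that were lower and 3 that were higher, against 14.6% and 5.78% of all probes tested. In whole tissue, fewer cells of a type and less RNA per cell cannot be told apart.

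The 11 genes with a called probe were Kcna6, Kcnb2, Kcnc1, Kcnj9, Scn3a, Scn8a, Cacna1a, Cacna1c, Cacna1d, Cacna1e and Cacna2d3, and all of these calls were made at 3 months. Cacna2d3 was the member that was higher.

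**Figure D1:**
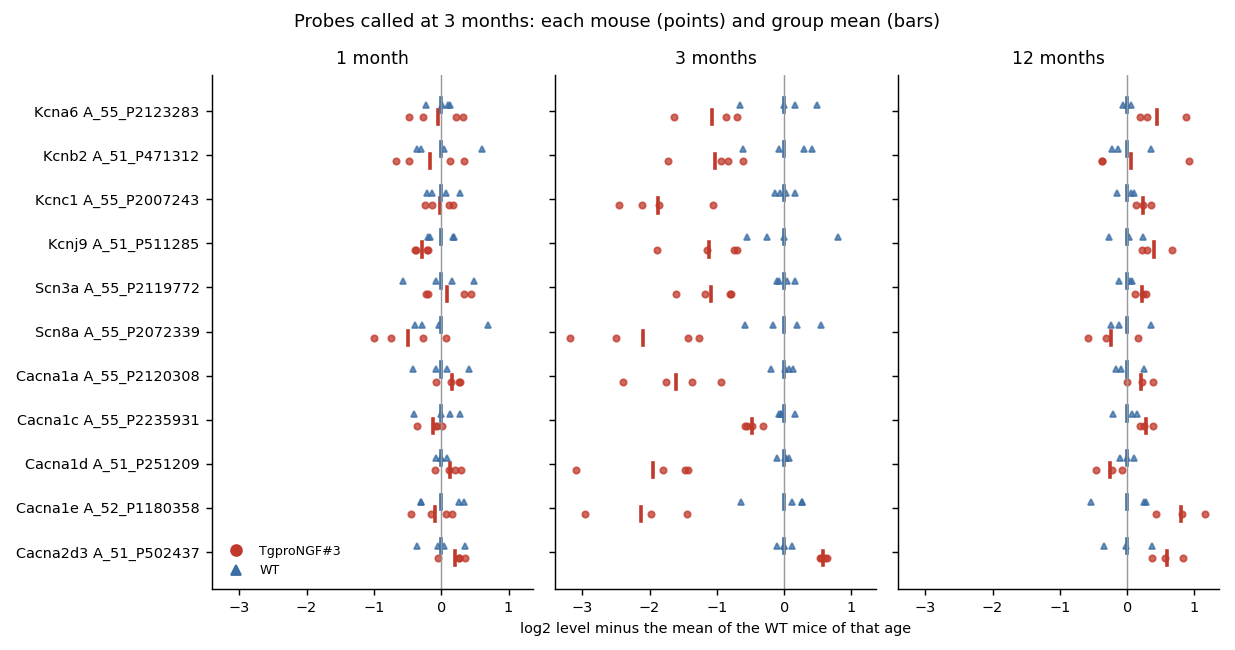
Level of the 11 called probes in each mouse, as the log2 difference from the WT mean of the same age (horizontal axis). There is 1 panel for each age and a point for each mouse of either genotype. At 3 months the TgproNGF#3 points of 10 probes lie below the WT mean, with Cacna2d3 above it, whereas at 1 month the points of both genotypes overlap for each of these probes.

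Among the pore-forming potassium channels of the Kv1 to Kv4 groups, Kcnc1 differed most. Kcnc1 encodes a fast delayed rectifier that lets fast-spiking interneurons fire at high rates. At 3 months its level on the probe with the highest mean was -1.45, -0.39, -1.19 and -1.79 in TgproNGF#3, against 0.83, 0.60, 0.53 and 0.69 in WT. Every TgproNGF#3 mouse was below every WT mouse. The Log2 FC was -1.87 (SE 0.267), a 3.65-fold fall (adjusted p = 0.00499). The other 2 Kcnc1 probes gave 0.30 (SE 0.183) and -0.10 (SE 0.304), neither of which passed the test.

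Kcnb2 encodes a slow delayed rectifier of somata and proximal dendrites. Its level was -4.34, -4.12, -4.45 and -5.24 in TgproNGF#3 and -3.22, -4.12, -3.10 and -3.59 in WT. One mouse of each genotype stood at -4.12, so the groups touched. This gave a Log2 FC of -1.03 (SE 0.289), which was called by p and fold but missed adjustment (adjusted p = 0.0579). The call by p and fold held in 11 of 20 alternatives.

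Kcna6, a Kv1 subunit of axons, was lower on a single probe. That probe read -6.29, -5.52 and -5.35 in 3 TgproNGF#3 mice, with the fourth not well above background and left out of the fit, against -4.16, -4.65, -5.31 and -4.49 in WT. The groups did not overlap, although the highest TgproNGF#3 mouse and the lowest WT mouse nearly met. It had a Log2 FC of -1.07 (SE 0.315, adjusted p = 0.073), called by p and fold in 13 of the 18 alternatives that tested it. The second Kcna6 probe, which was brighter, gave 0.10 (SE 0.189).

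Kcna4 encodes an A-type channel of axons and terminals. Its level was -0.67, -1.14, -0.45 and -1.08 in TgproNGF#3 and -0.24, -0.54, 0.19 and -0.20 in WT, with overlap. The Log2 FC of -0.64 (SE 0.21) had an adjusted p of 0.0896. Kcna2, a delayed rectifier of axons that was picked out after its values were seen, had probes that pointed opposite ways, with -0.91 (SE 0.249, adjusted p = 0.0532) on one and 0.80 (SE 0.292, adjusted p = 0.116) on the other. The dim Kcna2 probe read -5.58, -5.56, -6.03 and -6.14 in TgproNGF#3 and -5.22, -5.03, -4.22 and -5.18 in WT. The bright one read -0.17, 0.34, 0.46 and -0.69 against -0.29, -0.93, -1.31 and -0.74. Both probes name the same transcript, so the gene has no single direction here. In the rest of the Kv1 to Kv4 group the brightest probes lay between -0.35 (Kcnc2, SE 0.287, a fast delayed rectifier like Kcnc1) and 0.21 (Kcnc4, SE 0.221), and a second probe of the A-type Kcnd3 gave -0.43 (SE 0.299), with Kcnd2, the main A-type subunit of pyramidal cell dendrites, at -0.11 (SE 0.207). Over its 11 genes, taking the brightest probe of each, 8 were lower and 3 higher, with a median of -0.26.

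The 4 inward rectifiers were all lower, with a median of -0.25, and 2 had p below 0.05, where 19.7% of all probes were lower with such a p. Kcnj9 encodes a subunit of the G protein-gated inward rectifier, which lets metabotropic transmitters hyperpolarise the neuron. Its level was -1.09, -0.69, -0.64 and -1.83 in TgproNGF#3 and -0.20, 0.05, 0.86 and -0.49 in WT. The groups did not overlap, but the WT mice were themselves spread widely. The resulting Log2 FC was -1.12 (SE 0.338, adjusted p = 0.0719), called by p and fold in 16 of 20 alternatives. Kcnj3, a partner subunit of the same channel, gave -0.37 (SE 0.135, adjusted p = 0.117). Kcnj6, the third neuronal subunit, gave -0.13 (SE 0.321), and the astrocytic Kcnj10 gave -0.05 (SE 0.145).

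The calcium-activated potassium channels did not move together. Kcnn2, which underlies the medium afterhyperpolarisation of pyramidal cells, read 1.63, 1.52, 1.40 and 1.08 in TgproNGF#3 and 1.82, 1.83, 1.80 and 1.85 in WT. The WT mice were close together and all above the TgproNGF#3 mice. This gave a Log2 FC of -0.41 (SE 0.147, adjusted p = 0.109). Its relative Kcnn3 read -3.69, -4.30, -3.97 and -4.15 against -4.56, -4.73, -4.33 and -4.50, and the Log2 FC was 0.50 (SE 0.167, adjusted p = 0.0916). The groups were thus apart in opposite directions for these genes, and neither difference passed adjustment. Kcnma1, the large-conductance channel, had 4 probes between -0.20 and 0.35. The M-current genes Kcnq3 (-0.09, SE 0.244) and Kcnq5 (0.29, SE 0.182) did not pass the test. Of all 31 potassium channel probes tested, 21 were lower and 10 higher, with a median of -0.12, where 62.7% of all probes were lower. After adjustment 1 potassium channel probe (3.23%) fell, a smaller share than the 6.85% of all probes.

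All 11 sodium channel probes were lower at 3 months, with a median of -0.33, where 62.7% of all probes were lower. After adjustment 2 of them were called, against 6.85% of all probes. Scn8a encodes the sodium channel of the axon initial segment. One of its probes read -4.61, -3.38, -3.54 and -5.29 in TgproNGF#3 against -1.56, -2.69, -2.27 and -1.91 in WT. The groups were apart, with both spread widely. The Log2 FC was -2.10 (SE 0.424, adjusted p = 0.0186), a 4.29-fold fall. The other 2 probes gave -0.38 (SE 0.20) and -0.43 (SE 0.294).

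Scn3a encodes a sodium channel that is most abundant in the young brain. One probe read -0.37, -0.35, -0.74 and -1.17 in TgproNGF#3 and 0.32, 0.47, 0.59 and 0.35 in WT. The groups were apart, and the Log2 FC was -1.09 (SE 0.197, adjusted p = 0.0122). The other 2 probes gave -0.25 (SE 0.218) and -0.18 (SE 0.154). Scn1a, the sodium channel of fast-spiking interneurons, gave -0.47 (SE 0.276) and -0.13 (SE 0.36). The auxiliary beta subunits, which place and gate the pore, gave -0.33 (Scn3b, SE 0.157), -0.15 (Scn4b, SE 0.256) and -0.01 (Scn2b, SE 0.148), none with p below 0.05.

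Calcium channel pores held 4 of the 8 channel probes that passed adjustment, among them Cacna1c, whose call was lost in most alternatives. Of 24 calcium channel probes 19 were lower and 5 higher, with a median of -0.36, where 62.7% of all probes were lower. After adjustment 4 fell and 1 rose, against 6.85% and 1.57% of all probes. All 8 pore genes were lower on their brightest probe, of which 3 passed adjustment. The medians were -1.22 over the 2 Cav1 genes (-1.95 to -0.49), -0.83 over the 3 Cav2 genes (-2.13 to -0.47) and -0.33 over the 3 Cav3 genes (-0.76 to -0.01). These ranges overlap, and only 1 of the 3 Cav2 genes was measured on all arrays of this age. The auxiliary beta genes had a median of 0.03 and the alpha2delta genes one of 0.15.

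Cacna1d and Cacna1c encode L-type channels, which signal from the dendrite and soma to the nucleus. Cacna1d read -3.07, -2.74, -2.69 and -4.35 in TgproNGF#3 and -1.37, -1.24, -1.19 and -1.26 in WT. The WT mice lay close together, and every TgproNGF#3 mouse was far below the lowest of them. The Log2 FC was -1.95 (SE 0.331, adjusted p = 0.00916), a 3.86-fold fall. The second Cacna1d probe gave -0.24 (SE 0.165). Cacna1c read 1.58, 1.35, 1.32 and 1.42 in TgproNGF#3 and 2.06, 1.86, 1.83 and 1.85 in WT. The groups were apart by a narrow margin, and the Log2 FC was -0.49 (SE 0.129, adjusted p = 0.0481). This call held in 4 of 20 alternatives and in 0 of 8 fits that left out 1 mouse, with an adjusted p of up to 0.236. The second Cacna1c probe, measured in 2 TgproNGF#3 mice, gave -0.69 (SE 0.267).

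The Cav2 pores serve transmitter release. Cacna1a, the P/Q-type pore, read -2.01, -1.19, -1.62 and -2.65 in TgproNGF#3 and -0.19, -0.13, -0.45 and -0.25 in WT on its dimmer probe. The groups were well apart, with a Log2 FC of -1.62 (SE 0.277, adjusted p = 0.00943). Its brighter probe gave -0.47 (SE 0.221, adjusted p = 0.202). Cacna1e, the R-type pore, read -6.83, -5.85 and -5.31 in 3 TgproNGF#3 mice, the fourth being left out as not well above background, against -3.61, -4.51, -3.60 and -3.76 in WT. The groups were apart at low signal, and the Log2 FC was -2.13 (SE 0.371, adjusted p = 0.0128). It was -1.12 (SE 0.249, adjusted p = 0.0299) with normexp background correction, and -2.47 to -1.71 without 1 mouse. Cacna1b, the N-type pore, was measured at -6.87 and -6.94 in only 2 TgproNGF#3 mice, against -5.86, -5.89, -6.06 and -6.47 in WT. Its Log2 FC was -0.83 (SE 0.22, adjusted p = 0.0597).

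The T-type pores open near the resting potential and support burst firing. Cacna1h gave -0.76 (SE 0.243, adjusted p = 0.0829) and -0.51 (SE 0.205, adjusted p = 0.15) on its 2 probes. On the brighter one the TgproNGF#3 mice read 0.76, 0.32, 0.43 and 1.49 and the WT mice 1.49, 1.38, 1.48 and 1.70, so that 1 transgenic mouse stood among the WT. Cacna1g gave -0.33 (SE 0.167) and 0.17 (SE 0.204), and Cacna1i -0.01 (SE 0.151) and -0.52 (SE 0.19).

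Cacna2d3, an alpha2delta subunit that carries pores to the presynaptic membrane, was the member that rose. It read 1.86, 1.83, 1.76 and 1.77 in TgproNGF#3 and 1.35, 1.22, 1.22 and 1.13 in WT. The mice of each genotype stood close together and the groups did not overlap. The rise was 1.49-fold, a Log2 FC of 0.57 (SE 0.12, adjusted p = 0.0217). Its relatives Cacna2d1 (-0.38, SE 0.206) and Cacna2d2 (0.15, SE 0.223) did not pass the test. Of the beta subunits, which release the pore from the endoplasmic reticulum, Cacnb2 gave 0.37 (SE 0.135, adjusted p = 0.114) on one probe and -0.45 (SE 0.512) on the other. Cacnb3 gave -0.19 (SE 0.22) and Cacnb4 0.08 (SE 0.233). Hcn2, the pacemaker subunit measured here, gave -0.18 (SE 0.209) and 0.01 (SE 0.171).

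**Figure D2:**
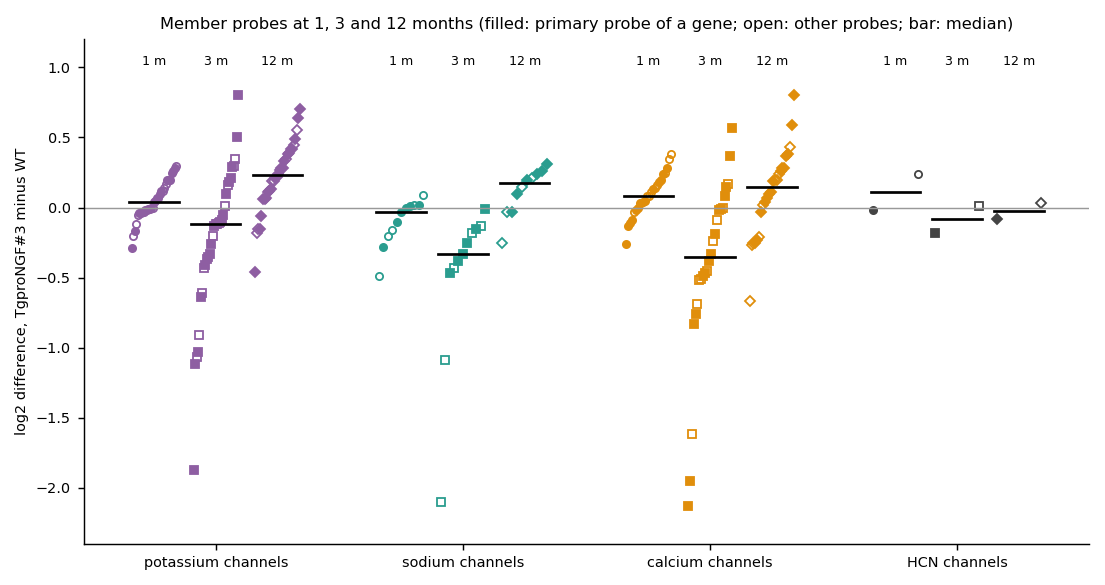
Log2 FC of every tested channel probe (vertical axis, log2 scale) by family and age, with filled points for the brightest probe of a gene, open points for its other probes and a bar at the median. At 3 months the medians were -0.12 for potassium, -0.33 for sodium and -0.36 for calcium channels, and at 12 months they were 0.23, 0.18 and 0.15.

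Probes of the same gene often disagreed. At 3 months 21 members had several tested probes. The probes had the same sign in 12 of these genes and opposite signs in 9, the median range within a gene was 0.5 and the largest 2.17 (Kcnc1). In 6 genes the range was over 1. Of the 11 called genes, 4 had a single probe and 7 had several. In all 7 only 1 probe was called, and in all 7 an uncalled probe named the same RefSeq transcript as the called one. At 1 month the largest range within a gene was 0.51 and at 12 months 0.95. What sets the probes of a gene apart at 3 months was not tested.

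**Figure D3:**
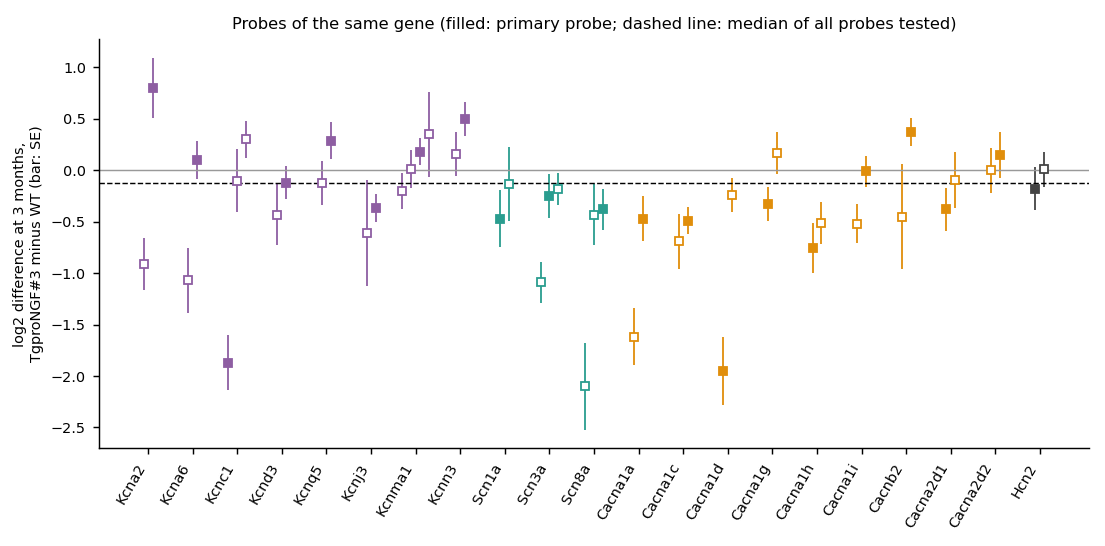
Log2 FC at 3 months with its SE (vertical axis, log2 scale) for each probe of the members with several tested probes. The dashed line marks the median of all probes. Called probes of Kcnc1, Scn8a, Cacna1d, Cacna1a and Scn3a lie between -2.10 and -1.09, and the other probes of those genes between -0.47 and 0.30.

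Some libraries weighed on these counts. TgproNGF#3 replicate 4 at 3 months had the lowest member level of its group, with a median over the members of -0.41 around the WT mean, where the other 3 mice had -0.20, -0.13 and -0.14. Without this mouse 7 probes were called lower by p and fold, against 4.71% of all probes, 21 were lower with p below 0.05, against 17.2%, and 10 passed adjustment in either direction, against 9.53%. Without WT replicate 4 at 3 months, 5 passed adjustment, against 2.91%. Where the 75th percentile was taken over all spots, which moved the median of all probes to 0.0, the channel probes were higher in 27 of 68 cases rather than 16. Then 6 probes were higher and 15 lower with p below 0.05, against 14.3% and 14.8% of all probes, and 3 higher and 7 lower after adjustment, against 4.79% and 6.75%.

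Markers of neuron classes were set beside these values. At 3 months the list of 7 pyramidal neuron markers had 6 lower, with a median of -0.29, and lay at -0.25 to -0.05 in TgproNGF#3 against -0.05 to 0.18 in WT mice around the WT mean. The 7 granule neuron markers had 6 lower, with a median of -0.27, and lay at -0.46 to -0.18 against -0.10 to 0.13. The 8 interneuron markers had 6 higher, with a median of 0.20, and Pvalb, the calcium buffer of fast-spiking interneurons, was at -0.04. The 5 general neuron markers lay at -0.25 to 0.08 in TgproNGF#3 and -0.22 to 0.29 in WT. The 8 leptomeningeal markers were all higher, at 0.08 to 1.02 against -0.14 to 0.25. The part of these shifts in the channel values was not tested.

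Other channel genes of the same pathways were followed through lists of 22 further potassium pore subunits and 21 channel partners. Of the 21 further potassium pore subunits tested at 3 months, 14 were lower and 7 higher, with a median of -0.10, and 2 were higher and 4 lower with p below 0.05 (9.52% and 19.0%). These shares lay near the 7.48% and 19.7% of all probes. Kcnf1, a silent subunit that joins delayed rectifiers, rose by 1.22 (SE 0.31, adjusted p = 0.0424). Of the 21 partners 11 were lower and 10 higher, with a median of -0.04. With p below 0.05 in limma, 3 partners were higher and 3 lower (14.3% each), against 7.48% and 19.7% of all probes. By p and fold 3 (14.3%) were called lower, against 6.12% of all probes. Kcnip2, which binds A-type channels, fell by 1.08 (SE 0.193, adjusted p = 0.0113), and Pex5l, which traffics HCN channels, fell by 1.15 (SE 0.221, adjusted p = 0.0154). Kcnab2, an auxiliary subunit of Kv1 channels, was called by p and fold (-1.11, SE 0.349) but missed adjustment (adjusted p = 0.0798). No other gene of either list passed adjustment at 3 months.

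At 12 months the channel probes lay mostly on the other side of WT. Of 66 probes tested, 50 were higher in TgproNGF#3 and 16 lower, where 51.2% of all probes were higher, with a median Log2 FC of 0.19 and a range from -0.67 to 0.80, where the median of all 34064 probes was 0.008. No channel probe passed adjustment in limma, as 0.0% of all probes did. With p below 0.05, 8 channel probes (12.1%) were higher and 0 lower, against 3.11% and 5.94% of all probes. None was beyond 1 in either direction with p below 0.05, where 0.311% and 0.992% of all probes were. The mice of both genotypes did not overlap for 18 probes (27.3%) that were higher and 1 (1.52%) that was lower, against 7.42% and 8.12%. With 3 against 3 mice an exact permutation test cannot give less than 0.1. All families but HCN had positive medians, with 0.23 over 30 potassium, 0.18 over 10 sodium and 0.15 over 24 calcium channel probes.

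The 8 probes with p below 0.05 at 12 months belonged to 7 genes, and all had an adjusted p of 0.549. Cacna1e read -2.82, -2.10 and -2.44 in TgproNGF#3 and -3.79, -3.00 and -2.97 in WT, with a Log2 FC of 0.80 (SE 0.276). Kcnc2 read 0.57, 0.42 and 0.99 against -0.44, -0.06 and 0.38, with 0.70 (SE 0.246). Cacna2d3 read 1.97, 1.78 and 2.24 against 1.06, 1.39 and 1.77, with 0.59 (SE 0.215). In each of these genes the lowest TgproNGF#3 mouse was above the highest WT mouse, for Cacna2d3 narrowly. Both probes of Kcnq5, an M-current channel that damps repetitive firing, were higher, with 0.64 (SE 0.236) and 0.35 (SE 0.128). The brighter one read -1.13, -1.33 and -0.55 against -1.93, -1.43 and -1.56. Kcnc1 was higher on a probe that had not been called at 3 months, with 0.35, 0.67 and 0.76 against 0.09, -0.19 and 0.23, and a Log2 FC of 0.55 (SE 0.176). The Kcnc1 probe that had fallen at 3 months read 0.72, 0.82 and 0.94 against 0.43, 0.64 and 0.69 at 12 months, with 0.24 (SE 0.141). The remaining probes were those of Cacnb2 (0.43, SE 0.169) and Kcna3 (0.42, SE 0.176), a Kv1 channel also found in immune cells.

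The other members had p above 0.05 at 12 months. Kcnd2 gave 0.33 (SE 0.16), Kcnn2 0.38 (SE 0.171) and Kcnj10 0.49 (SE 0.282), whereas Kcnj6 gave -0.46 (SE 0.251). Kcnj9 gave 0.39 (SE 0.188) and Cacna1d -0.25 on both probes (SE 0.152 and 0.202). Hcn2 gave -0.08 (SE 0.145).

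The 12-month counts moved with single arrays and with the array row of the slide. The 3 TgproNGF#3 arrays and WT replicate 3 lay in 1 array row, and WT replicates 1 and 2 in the other. With the array row as a block, 0 channel probes were higher with p below 0.05, against 0.44% of all probes, and the median over the channel probes minus that of all probes went from 0.19 to 0.08. Without TgproNGF#3 replicate 3 the count of 8 became 1, without WT replicate 1 it became 2 and without WT replicate 2 it became 3, against 0.97%, 0.905% and 1.16% of all probes. Over the members, the median level was 0.18, 0.19 and 0.29 in the TgproNGF#3 mice and -0.12, 0.01 and 0.12 in the WT mice, the last of which shared the row with the transgenic mice.

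Of the interneuron, pyramidal, general and granule neuron markers, 0 passed adjustment at 12 months in limma, while 3 of 8, 1 of 7, 1 of 5 and 1 of 7 were higher with p below 0.05, against 3.11% of all probes, and 1 granule marker was lower. The lists were not tested against each other. All 8 interneuron markers had values above 0, where 51.2% of all probes did, with a median of 0.49, and lay at 0.36 to 0.67 in TgproNGF#3 against -0.32 to 0.42 in WT around the WT mean. Of these Vip gave 0.90, Sst 0.82, Gad1 0.58 and Pvalb 0.34. All 7 pyramidal markers were above 0, at 0.22 to 0.36 against -0.07 to 0.06, as were all 5 general neuron markers, at 0.12 to 0.30 against -0.06 to 0.09. The 7 granule neuron markers had 4 higher and 3 lower, with a median of 0.05, and lay at -0.06 to 0.12 in TgproNGF#3, inside the -0.32 to 0.22 of WT. The lowest of them was C1ql2, a synaptic organiser of mossy fibres, at -1.05 (SE 0.438, adjusted p = 0.549), and the highest was Calb1, a calcium buffer, at 0.73 (SE 0.218, adjusted p = 0.549). Leptomeningeal markers were lower in 7 of 8 genes, at -1.45 to -0.27 against -0.34 to 0.39. The 21 channel partners had 18 higher and 3 lower, with a median of 0.23, and the 22 further potassium pore subunits had 16 higher and 6 lower, with a median of 0.12. The part of these shifts in the channel values was not tested.

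**Figure D4:**
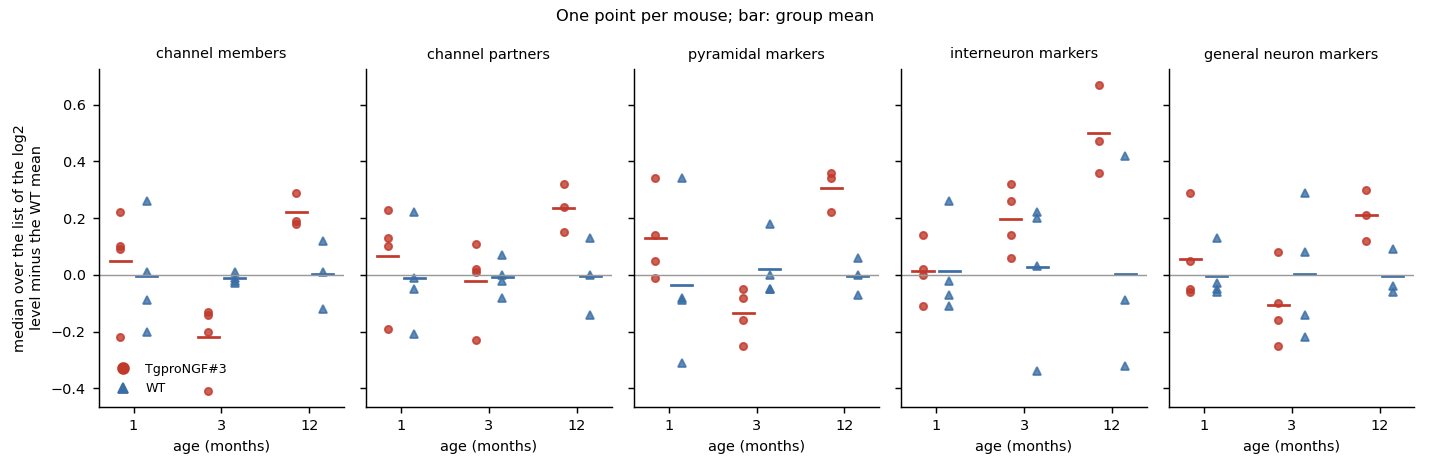
Median over each gene list in each mouse, as the log2 difference from the WT mean of the same age (vertical axis), for channel members, channel partners, pyramidal, interneuron and general neuron markers at each age. At 12 months the TgproNGF#3 mice lie at 0.18 to 0.29 for the channel members and at 0.36 to 0.67 for the interneuron markers.

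At 1 month no channel probe passed a test in the fit without a block, and 1 had p below 0.05 with a replicate block. Of 68 probes tested 39 were higher and 29 lower, where 63.8% of all probes were higher, with a median Log2 FC of 0.03 and a range from -0.49 to 0.38, where the median of all 40536 probes was 0.068. With p below 0.05 there were 0 channel probes in limma in either direction, against 2.15% higher and 1.31% lower of all probes. With Log2 FC beyond 1 in addition there were likewise 0, against 0.242% and 0.328%, and after adjustment 0, against 0.0% of all probes. Same-numbered arrays deviated together at this age. With the replicate number as a block 1 probe of Scn8a was lower with p below 0.05, by -0.49 (SE 0.185), at an adjusted p of 0.818, where 2.52% of all probes were lower with such a p. The groups were apart for 1 channel probe (1.47%) that was higher and 0 that were lower, against 2.0% and 1.33% of all probes. It was a Kcnq5 probe, with -0.43, -0.25, -0.38 and -0.46 in TgproNGF#3 and -0.52, -0.62, -0.97 and -0.54 in WT, and a Log2 FC of 0.28 (SE 0.166). Cacnb3 gave 0.28 (SE 0.167), Kcnj9 -0.29 (SE 0.169) and Cacna2d2 -0.26 (SE 0.268). The probes that were called at 3 months lay between -0.49 (Scn8a, SE 0.299) and 0.20 (Cacna2d3, SE 0.192) at 1 month.

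Whether the genotype difference itself differed between the age groups was tested as an interaction over all ages. From 1 to 3 months 5 of 66 channel probes went down and 0 up after adjustment, where 2.82% and 0.0494% of all probes did. These were Cacna1d by -2.08 (SE 0.338, adjusted p = 0.000918), Cacna1e by -2.04 (SE 0.43, adjusted p = 0.00981), Kcnc1 by -1.84 (SE 0.295, adjusted p = 0.000815), Cacna1a by -1.77 (SE 0.324, adjusted p = 0.00247) and Scn3a by -1.18 (SE 0.298, adjusted p = 0.0323). From 3 to 12 months 7 went up and 0 down, where 3.63% and 0.891% of all probes did. The same 5 probes were among them, with 2.93 (SE 0.462) for Cacna1e, 2.11 (SE 0.318) for Kcnc1, 1.82 (SE 0.35) for Cacna1a, 1.70 (SE 0.365) for Cacna1d and 1.30 (SE 0.322) for Scn3a, joined by Kcna6 with 1.52 (SE 0.386) and Kcnj9 with 1.51 (SE 0.388). Both contrasts share the 3-month mice. Between 1 and 12 months 0 passed adjustment in limma and 1 had p below 0.05, against 0.0% of all probes after adjustment. The 3-month mice were males and the 12-month mice females, and each age had a slide of its own.

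WT levels over the ages were read relative to the other probes, since the scale itself moved. Between 1 and 3 months the median of all probes fell by 0.45 with the percentile over spots well above background, and stood at 0.01 with the percentile over all spots. The channel probes had a median of -0.52, which was 0.07 below that of all probes, with 27 of 67 above it and 40 below. After adjustment 34 channel probes were lower and 0 higher, against 43.1% and 1.56% of all probes. With the percentile over all spots 3 were lower and 5 higher, against 5.53% and 7.49%. The count of falls thus changed with the scale, and for many of the genes the result over all spots is given as well.

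Scn3b, a beta subunit of sodium channels, gained most on the other probes from 1 to 3 months. Its WT level was 2.34 ± 0.191 (SD, n = 4) at 1 month, 2.71 ± 0.226 (SD, n = 4) at 3 months and 1.89 ± 0.105 (SD, n = 3) at 12 months. From 1 to 3 months its own difference was 0.37 (SE 0.156, adjusted p = 0.0658), which stood 0.82 above the median of all probes. With the percentile over all spots the difference was 0.83 (adjusted p = 0.00416). Between 3 and 12 months it fell by 0.83 (SE 0.169, adjusted p = 0.0105). One Cacna1d probe followed the same path, with -1.54 ± 0.0701, -1.26 ± 0.0764 and -1.78 ± 0.106 (SD, n = 4, 4 and 3). To 3 months its own difference was 0.27 (SE 0.125, adjusted p = 0.087), or 0.73 over all spots (adjusted p = 0.00388), and to 12 months it fell by 0.52 (SE 0.136, adjusted p = 0.0305). The second Cacna1d probe, of the same transcript, went the other way to 3 months, with -3.16 ± 0.12, -3.74 ± 0.197 and -3.60 ± 0.08 (SD, n = 4, 4 and 3). Its difference to 3 months was -0.58 (SE 0.142, adjusted p = 0.00749), or -0.12 over all spots (adjusted p = 0.665), so the gene has no single path here. Kcnj9 differed by 0.23 (adjusted p = 0.441) and Cacna1e by 0.20 (adjusted p = 0.515) to 3 months, or by 0.69 and 0.66 over all spots (adjusted p = 0.0833 and 0.082), past the threshold on neither scale. The other 3 of the 5 probes that were higher over all spots, picked out after their values were seen, were those of Cacna1h by 0.66 (adjusted p = 0.00669), Cacnb3 by 0.52 (adjusted p = 0.0346) and 1 of Cacna1a by 0.50 (adjusted p = 0.0391). On the scale used elsewhere they gave 0.20, 0.06 and 0.05, and none passed (adjusted p = 0.271, 0.729 and 0.836). The dimmer Cacna1h probe went the other way, by -0.80 (SE 0.149, adjusted p = 0.00193), or -0.34 over all spots (adjusted p = 0.134). The brighter Cacna1a probe gave -0.47 (adjusted p = 0.0848), or -0.01 over all spots (adjusted p = 0.974).

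The brighter probe of Cacna2d2, an alpha2delta subunit, took the reverse path, with 1.06 ± 0.0383, 0.16 ± 0.149 and 0.71 ± 0.205 (SD, n = 4, 4 and 3). It stood 0.46 below the median of all probes between 1 and 3 months, and its fall of 0.91 (SE 0.14) passed adjustment on both scales (adjusted p = 0.000757, or 0.0328 over all spots). The second Cacna2d2 probe gave -0.34 (SE 0.206, adjusted p = 0.178) for the same months. Kcnn3 fell by 0.98, Cacna1b by 0.92 and Kcna3 by 0.91 over the same months, with adjusted p of 0.00325, 0.00618 and 0.00299, none of which held over all spots (0.0835, 0.262 and 0.139). Among the dimmer probes, picked out after their values were seen, 1 of Scn1a fell by 1.29 (SE 0.208, adjusted p = 0.000933) and 1 of Scn8a by 0.99 (SE 0.134, adjusted p = 0.000435), and both falls held over all spots (adjusted p = 0.0241 and 0.0269). The brighter Scn1a probe fell by 0.88 (SE 0.227, adjusted p = 0.00902) and did not hold over all spots (adjusted p = 0.193). The other Scn8a probes, of the same transcript, gave -0.24 and -0.26 (adjusted p = 0.452 and 0.442). Over all spots they gave 0.22 and 0.20 (adjusted p = 0.67 and 0.695).

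From 3 to 12 months 4 channel probes rose and 3 fell in WT after adjustment, against 7.55% and 2.06% of all probes. Over all spots 5 rose and 4 fell, against 7.91% and 4.39%. When 1 WT mouse was left out, 1 to 5 rose and 1 to 3 fell, and with median scaling 1 rose and 0 fell. The median of all probes was 0.08 at this step, or 0.05 over all spots. The brighter Hcn2 probe rose by 0.75 (SE 0.192, adjusted p = 0.0267), from 3.03 ± 0.284 (SD, n = 4) to 3.79 ± 0.133 (SD, n = 3), after 3.87 ± 0.253 (SD, n = 4) at 1 month. The second Hcn2 probe, of the same transcript, gave -0.10 (SE 0.195, adjusted p = 0.796) and did not show this rise. The other probes that rose were 1 of Kcnd3, by 1.26 (SE 0.207, adjusted p = 0.00411), 1 of Scn1a, by 0.88 (SE 0.224, adjusted p = 0.0271), and the brighter one of Cacna2d2, by 0.55 (SE 0.151, adjusted p = 0.0361). These 3 passed over all spots too and were picked out after their values were seen, and the brighter probes of Kcnd3 and Scn1a did not pass (adjusted p = 0.592 and 0.272). The brighter Cacna1i probe fell by 0.83 (SE 0.217, adjusted p = 0.0305), from 1.55 ± 0.189 (SD, n = 4) to 0.72 ± 0.367 (SD, n = 3), and the second gave -0.19 (SE 0.182, adjusted p = 0.552). Kcnn3 gave 0.74 (SE 0.221, adjusted p = 0.0522) and Kcnq5 -0.49 (SE 0.181, adjusted p = 0.103) on their brighter probes, and both passed over all spots (adjusted p = 0.0423 and 0.0466). Their second probes gave 0.10 (adjusted p = 0.822) and -0.07 (adjusted p = 0.873). Cacna1e gave 0.62 (adjusted p = 0.178) and Kcnb2 0.61 (adjusted p = 0.189), past the threshold on neither scale. Over the brightest probes the potassium genes stood 0.04 below all probes at the first step and 0.02 below at the second, the sodium genes 0.06 and 0.04 above, and the calcium genes 0.05 and 0.06 below. The WT mice of 12 months were females on another slide, and this step cannot be told apart from one of sex or slide.

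**Figure D5:**
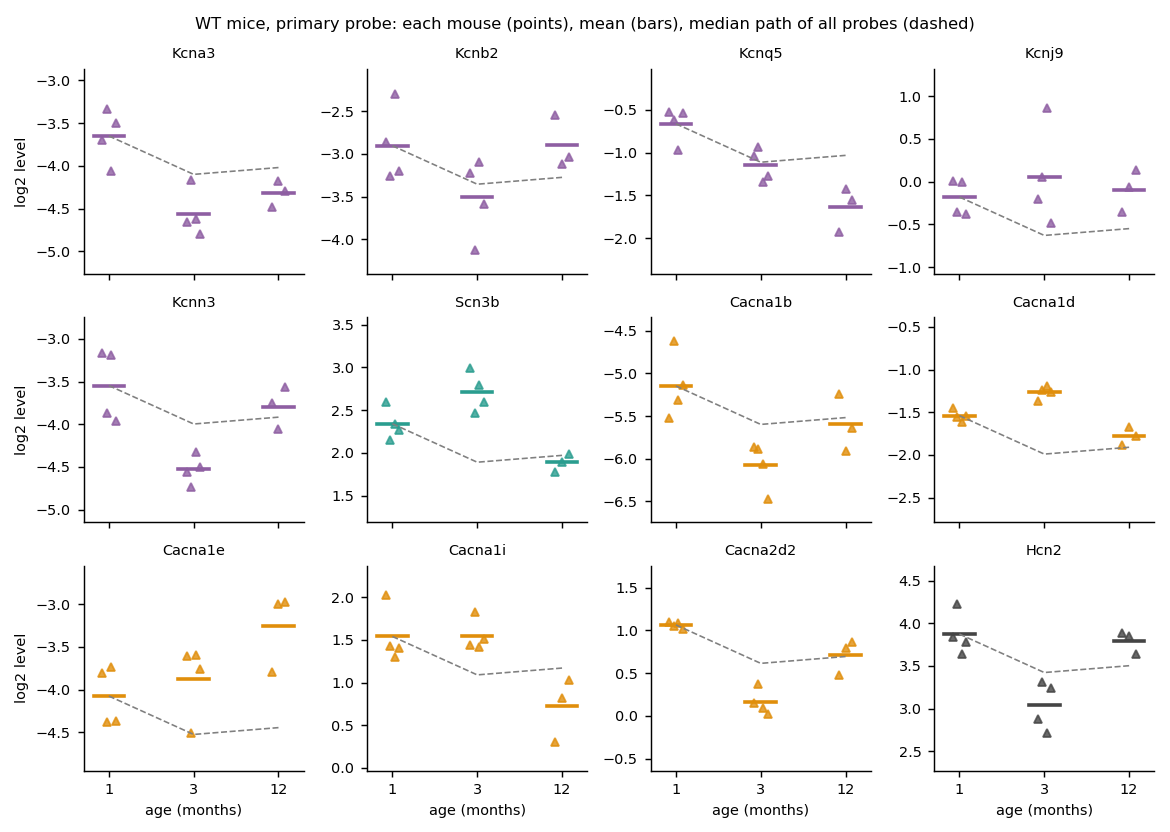
Level of the brightest probe of 12 channel genes in each WT mouse at 1, 3 and 12 months (horizontal axis, months) on the log2 scale relative to the array's 75th percentile (vertical axis), the dashed line following the median path of all probes. On the probes drawn, Scn3b and Cacna1d are highest at 3 months, and Cacna2d2 and Hcn2 lowest.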

How the data were processed

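Per the labels and the methods of the study, hippocampal RNA was hybridised to one-colour Agilent mouse arrays and scanned with Feature Extraction 10.7.3.1 (array design build mm9). The deposited scanner files hold background-corrected signal intensity per spot, which the authors corrected with that software, and the authors' log2 table was used as an alternative (28929 probes, SD of its difference from the values used here 0.00277 to 0.00664 per array). From 62976 spots, the 59305 non-control spots were taken, spots not well above background and outlier spots were left out, and log2 intensity minus the array's 75th percentile was averaged per probe. Probe names came from RefSeq accessions, and 28026 of 55681 probes had 1 symbol. Each age was fitted by itself with limma 3.58.1 (lmFit and eBayes, two-sided, in R 4.3.3) over all probes with at least 2 values per group. Tables and figures were made with Python 3.11.15, pandas 2.3.3 and matplotlib 3.10.9. The number of arrays, 3 or 4 per group, limits the precision.

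The members and all gene lists were chosen with earlier results of these data known. The genes named are the members with a called probe, and then, up to 24, those with the smallest p of the brightest probe in turn from each age. Kcna2 and some dimmer probes in WT were picked out after their values were seen, and other members are given to complete their groups. Labels give separate mice, and nothing says how mice were drawn from litters. Same-numbered arrays deviated together at 1 month (correlations 0.511, 0.272, 0.191 and 0.208 over 36103 probes). However, TgproNGF#3 replicate 4 deviated most like WT replicate 2 at that age. No label gives a pairing, and the fit reported has no block. At 3 months same-numbered arrays did not deviate together (-0.356 to -0.0234), although they shared an array row at 1 and 3 months. Nor did they at 12 months (-0.316 to 0.0503). The fit was tested on simulated data. Array pairs correlated at 0.9486 to 0.9944. One item is not reported here.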

Additional observations from a re-analysis of the deposited data

Results flagged for a closer look

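Among 105 groups of 4 mice examined for the channel probes, 3 held a mouse far from the other 3, where chance flags about 1 in 20 groups. The brightest Scn8a probe read 0.28 in WT replicate 3 at 3 months, against -0.42 to -0.37 in the other WT mice, a gap of 0.928 of the group's range. The called Cacna1c probe read 2.06 in WT replicate 1 at 3 months, against 1.83 to 1.86, a gap of 0.874 of the range. A Cacnb2 probe read -1.95 in WT replicate 3 at 1 month, against -1.41 to -1.39, a gap of 0.956 of the range.

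The genotype difference differed between the age groups for 12 probe and age pairs by the interaction term of limma. The age groups also differed in slide, and those of 3 and 12 months in sex. From 1 to 3 months it went by -2.08 for Cacna1d, -2.04 for Cacna1e, -1.84 for Kcnc1, -1.77 for Cacna1a and -1.18 for Scn3a. From 3 to 12 months it went by 2.93 for Cacna1e, 2.11 for Kcnc1, 1.82 for Cacna1a, 1.70 for Cacna1d, 1.52 for Kcna6, 1.51 for Kcnj9 and 1.30 for Scn3a. All of these turn on the 3-month mice, which both contrasts share.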

How the results depend on the processing

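Of the 11 called probes, those of Kcnc1, Cacna1a and Cacna1d passed adjustment in 20 of 20 alternatives, Scn3a in 19, Scn8a in 16, Cacna2d3 in 15 and Cacna1e in 17 of 18. Cacna1c and Kcnb2 did in 4, Kcnj9 in 2 and Kcna6 in 2 of 18, and all 11 kept their direction. The 8 adjusted calls at 3 months became 16 with all 22 arrays in 1 fit and 4 with the replicate block, and 5 to 10 when 1 mouse was left out. The probes with p below 0.05 at 1 month went from 0 to 1 with dim spots kept, with the percentile over all spots, with the authors' log2 values and with the replicate block. They were 0 to 1 without 1 mouse. Probes higher with p below 0.05 in limma at 12 months went from 8 to 5 with the replicate block, and were 1 to 10 without 1 mouse. The channel median minus that of all probes went from 0.19 to 0.08 with the array row as a block at 12 months, from -0.07 to 0.13 with quantile normalization in WT from 1 to 3 months, and from 0.02 to -0.13 with dim spots kept in WT from 3 to 12 months. Interaction calls were 5 (4 to 8 without 1 mouse, 8 without TgproNGF#3 replicate 3 at 3 months) and 7 (4 to 9, 4 without WT replicate 1 at 12 months). Averaging the probes of each gene turned Cacnb2 to -0.04 and Kcna2 to -0.06 at 3 months. There were 31 single-probe results with an unadjusted p below 0.05 in limma, most of them not calls. Of 609 comparisons of these, 509 kept the direction and a p below 0.05. In 98 the p was no longer below 0.05, and 2 reversed. The causes were not tested. Probes near background, such as those of Cacna1e, Kcna6 and Cacna1b, rest on fewer mice.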
